A study of Mus musculus with 71 samples.

Results

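Oocytes that lack Dynll1, made in culture from mouse embryonic stem cells and taken on day 13 of differentiation, were compared with wild-type oocytes of the same day. The knockout was represented by 2 libraries and the wild type by 2, the 4 columns labelled for these groups among 71 samples in 34 groups. The stem cells had a C57BL/6 X 129 background and carried the reporters Blimp1-Venus and Stella-CFP in wild type and knockouts alike. Primordial germ cell-like cells derived from them were aggregated with gonadal somatic cells of female embryos to give reconstituted ovaries, and on day 11 or day 13 the oocytes positive for Stella-CFP were sorted by flow cytometry. The somatic cells of these ovaries came from other embryos, so the knockout was carried by the germ cells. The labels do not say how Dynll1 was disrupted or how many clones were used. The younger wild type of day 11 and the Nobox and Tbpl2 knockouts of day 13, with 2 libraries each, served for direct comparison.

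Dynll1 encodes LC8, a small light chain that joins pairs of proteins and is a subunit of cytoplasmic dynein, the motor that carries cargo towards the minus ends of microtubules. LC8 also binds many partners outside the motor, among them the pro-death proteins BMF and BIM and the DNA repair protein 53BP1. An oocyte that enters growth leaves the early steps of meiotic recombination behind and begins to make the glycoproteins of the egg coat, the proteins of the subcortical maternal complex and the machinery that stores maternal mRNA. In bulk RNA such as this, fewer cells of a type and less RNA per cell cannot be told apart.

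Levels are given in TPM, a length-normalised share of the transcripts in a library, which scale every library to 1 total after division by gene length. Changes are differences of log2(TPM + 1), knockout minus the other group, ± SE. They came from a single limma fit over the 42 libraries of the 21 groups of in vitro oocytes. A gene is said to have risen or fallen where limma's adjusted p fell below 0.05 with a log2 change of 1 or more in size. The 4 libraries compared showed 8910 to 10596 genes at 1 TPM or more, and the replicates correlated across genes at r = 0.989 in both groups. The table covers 15140 genes, which lie almost entirely on chromosomes 1 to 5 and 10 to 19, and 12306 were tested. Of the 11 genes set down as oocyte markers 8 were in the table, and each was detected in both knockout libraries. The sequencing depth behind TPM is unknown, and the labels do not call the replicates separate cultures. A p-value here thus reflects only how far replicate libraries spread within the 21 groups of the fit, not within the 4 libraries alone.

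Dynll1 itself (chr5:115297110-115300999, minus strand, GRCm38, protein-coding) was at 21.3 and 24.6 TPM in the libraries of its own knockout and at 401 and 424 TPM in wild type of day 13. Both knockout libraries lay far below both wild-type libraries, an 18.0-fold lower mean (log2 change -4.11 ± 0.093, adjusted p = 2.5e-22). The level in the knockout was not 0, and from TPM per gene it cannot be read which part of the transcript remained. Among the 33 groups with data the Dynll1 knockout had the lowest mean apart from the MII_DIOL group of oocyte-like cells, which stood at 12.9 and 17.5 TPM. The next group up, fully grown competent oocytes from the animal (vivo-comp-GV), ranged from 104 to 121 TPM over 3 libraries. Wild-type oocytes of day 11 held 286 and 242 TPM, less than those of day 13, and the Nobox knockout held 138 and 129 TPM.

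**Figure D1:**
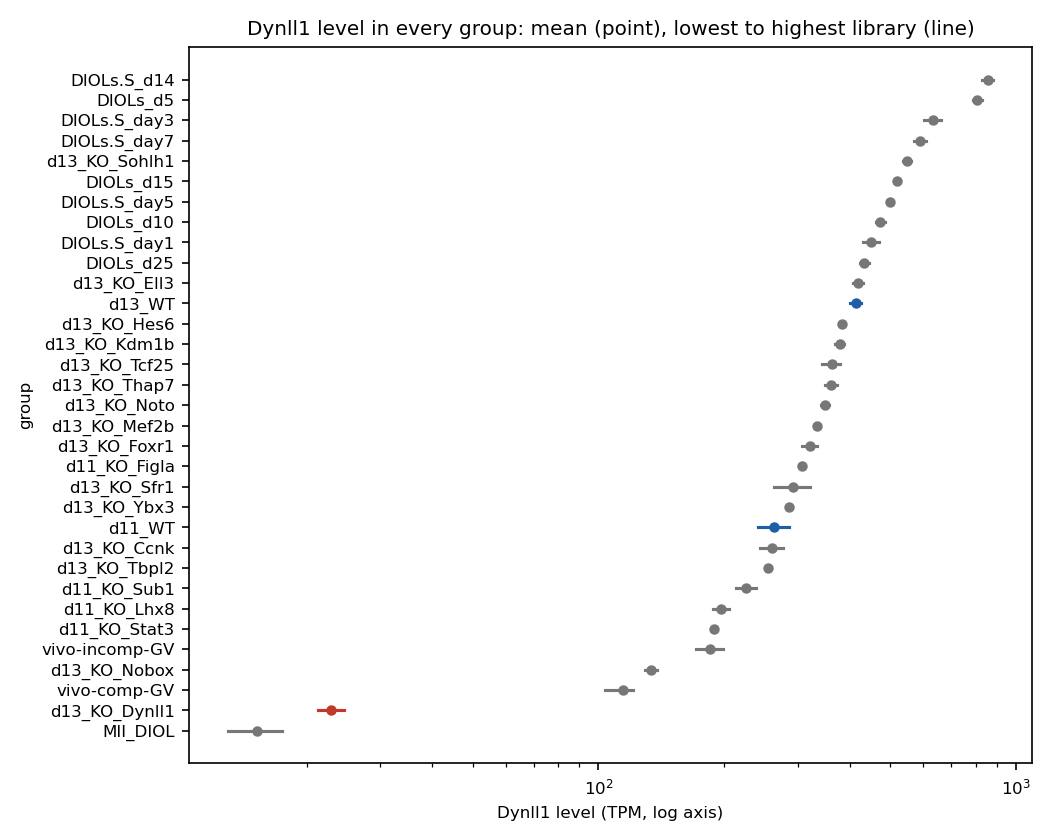
Dynll1 level in TPM on a log axis for each of 33 groups, ordered by the mean (point), with a line from the lowest to the highest library; the Dynll1 knockout is red and the wild types are blue. The Dynll1 knockout sits at 21.3 to 24.6 TPM and the wild type of day 13 at 401 to 424 TPM.

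Dynll1 knockout oocytes differed from wild type of day 13 at 5926 of 12306 genes tested (48.2%). Of these 4642 rose (37.7% of genes tested) and 1284 fell (10.4%). By the same fit and thresholds, 18 other knockouts set against the wild type of their own day gave between 14 genes (0.114%, Ell3) and 4738 genes (38.5%, Nobox). Whole libraries differed in scale: by the median of ratios the knockout libraries stood 0.59 (log2) above wild type, and the median change of all genes was 0.69. The genes covered held 66.76 to 66.85% of a library's full TPM total in wild type of day 13 and 66.35 to 66.40% in the knockout. Of the TPM summed over the genes covered, the 10 most abundant of them took 12.6 to 12.8% in wild type of day 13. In the knockout the 10 most abundant took 2.78 to 2.79% of that sum. After rescaling by the median of ratios 5205 genes passed (42.3%), 3143 higher (25.5%) and 2062 lower (16.8%), so the share of lower genes among those called went from 21.7% to 39.6%. All 1284 genes that fell and 3143 of the 4642 that rose also passed after rescaling.

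**Figure D2:**
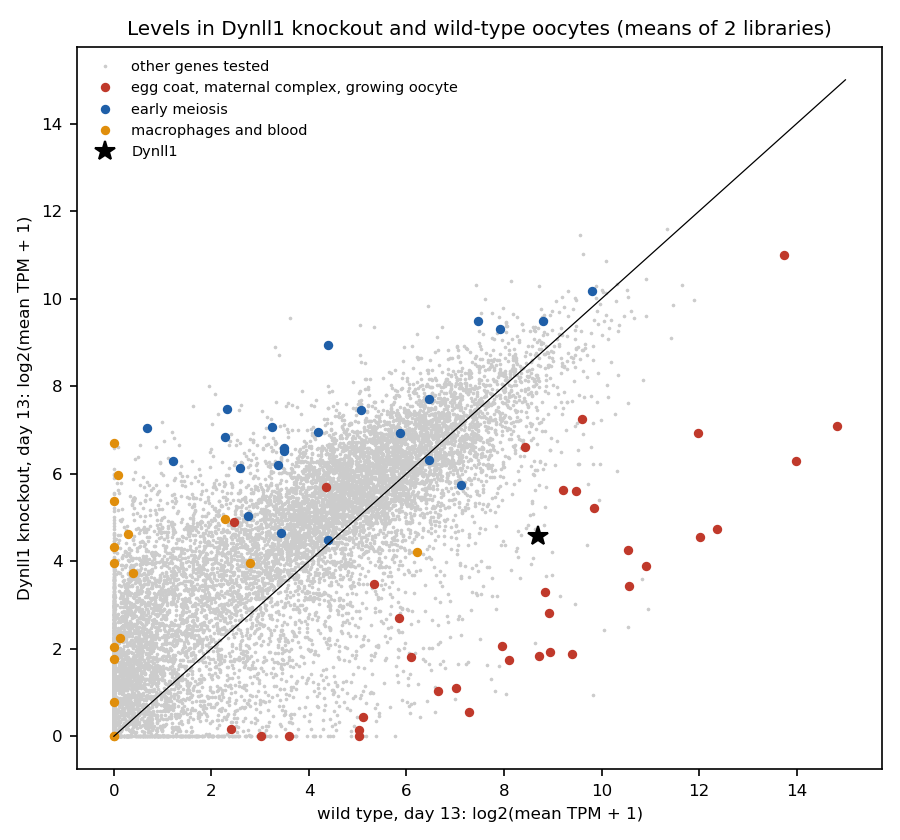
Each point is a gene tested, at log2(mean TPM + 1) of 2 wild-type libraries of day 13 (x) and of 2 Dynll1 knockout libraries (y), with the line of equal levels; colours mark gene lists and the star marks Dynll1. Genes of the egg coat, maternal complex and growing oocyte lie below the line, apart from Ovgp1 and Slc39a10, and most early meiosis genes lie above it.

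The transcripts that fill a growing oocyte were far lower in the knockout. Of 10 measured genes for the egg coat and proteins the oocyte secretes, 9 fell and 1 rose, with a median log2 change of -7.06. The most abundant was Zp3 (chr5:135980099-135988624), which encodes a glycoprotein of the zona pellucida, the coat of the egg. Zp3 stood at 74.0 and 80.4 TPM in the knockout against 16423 and 16226 TPM in wild type (log2 change -7.71 ± 0.11, adjusted p = 2.1e-26), a 211-fold difference between means. The values of the libraries did not overlap. Zp1, whose product cross-links the filaments of that coat, stood at 24.6 and 20.6 TPM in the knockout against 4179.6 and 4077 TPM in wild type (log2 change -7.46 ± 0.43). Gdf9, the growth factor through which the oocyte acts on granulosa cells, was at 15.8 and 11.7 TPM in the knockout against 1976 and 1897 TPM in wild type (log2 change -7.05 ± 0.35). Oosp1 and Oosp2 encode secreted oocyte proteins, and Astl encodes ovastacin, the protease that hardens the coat after fertilisation. Their log2 changes were -7.62, -7.07 and -7.11, and in each gene both knockout libraries lay below both wild-type libraries. The 1 member that rose was Ovgp1, an oviduct glycoprotein, at 30.2 and 27.2 TPM in the knockout against 5.32 and 3.78 TPM in wild type, and it lost its call with a pseudocount of 0.1.

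All 4 measured genes of the subcortical maternal complex, a protein assembly under the oocyte membrane that early embryos need, fell (median log2 change -5.67). Padi6 (chr4:140727355-140742643), needed for the cytoplasmic lattices of the oocyte, was the most abundant gene of the table in wild type at 29352 and 28463 TPM. In the knockout Padi6 was at 140.5 and 128 TPM (log2 change -7.74 ± 0.12, adjusted p = 9.3e-26), 215-fold lower. Zbed3 was at 20.9 and 15.4 TPM in the knockout against 1499.8 and 1493 TPM in wild type, and Tle6 at 124 and 119 TPM in the knockout against 4076 and 4009 TPM in wild type. Nlrp4f, from a family of near-identical genes among which reads may be split, had a log2 change of -4.65.

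Of 21 further transcripts of growing oocytes 20 fell and 1 rose, with a median of -4.89. Npm2, the nucleoplasmin that remodels sperm chromatin, stood at 31.7 and 20.0 TPM in the knockout against 5299 and 5199.9 TPM in wild type (log2 change -7.65 ± 0.38). Mos, the kinase that holds the mature egg in metaphase, was at 0 and 0.94 TPM in the knockout against 159 and 151 TPM in wild type. The copies Oas1d and Oas1e, which share sequence and are uncertain for that reason, had log2 changes of -6.36 and -6.15. Slc39a10, a zinc importer, rose by 1.34 as deposited and by 0.77 after rescaling, where it no longer passed. The largest fall of all belonged to Khdc1b, a KH-domain gene of oocytes, at 0.78 and 1.08 TPM in the knockout against 914 and 908 TPM in wild type (log2 change -8.89 ± 0.45). Miox, an inositol oxygenase, and Myot, a sarcomere gene, were also among the 15 largest falls of genes with a given name, with log2 changes of -7.24 and -7.05.

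Promoter sequences were read from RefSeq (GRCm38.p6) as the 250 bases before each start, for the 7402 tested genes with a single start in that table. Of the 15 genes with the largest falls once names of predicted genes (Gm, Rik) were left out, 8 had such an entry, and 6 of these 8 held CAGGTG on either strand (CACCTG when read on the other). CAGGTG is a form of CANNTG, the E-box, to which basic helix-loop-helix factors bind. Of the genes left out by name, E330017A01Rik, E330034G19Rik and 4930562C15Rik fell further than Tbpl2, the last of the 15. The 6 are shown because they carry the motif among those 15, 5′ to 3′ in the direction of the gene and ending at the base before the start, with CAGGTG or CACCTG in capitals.
Khdc1b: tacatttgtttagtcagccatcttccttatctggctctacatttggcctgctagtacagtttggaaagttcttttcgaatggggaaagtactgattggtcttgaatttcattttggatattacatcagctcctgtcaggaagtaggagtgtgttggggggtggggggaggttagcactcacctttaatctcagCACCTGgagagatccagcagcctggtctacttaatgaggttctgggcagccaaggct
Zar1: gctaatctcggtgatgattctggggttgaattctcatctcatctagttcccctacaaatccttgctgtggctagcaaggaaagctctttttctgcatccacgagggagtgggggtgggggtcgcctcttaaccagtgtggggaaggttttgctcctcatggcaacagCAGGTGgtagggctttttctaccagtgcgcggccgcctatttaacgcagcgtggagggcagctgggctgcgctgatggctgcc
Padi6: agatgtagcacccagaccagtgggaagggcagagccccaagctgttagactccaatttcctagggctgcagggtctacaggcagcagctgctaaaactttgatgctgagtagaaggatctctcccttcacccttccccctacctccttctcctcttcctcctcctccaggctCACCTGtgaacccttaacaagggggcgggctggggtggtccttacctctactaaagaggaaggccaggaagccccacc
Zp3: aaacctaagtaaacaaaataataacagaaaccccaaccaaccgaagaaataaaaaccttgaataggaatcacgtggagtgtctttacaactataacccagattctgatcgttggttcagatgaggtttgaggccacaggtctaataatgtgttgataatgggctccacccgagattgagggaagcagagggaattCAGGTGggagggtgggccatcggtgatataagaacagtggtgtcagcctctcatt
Oosp1: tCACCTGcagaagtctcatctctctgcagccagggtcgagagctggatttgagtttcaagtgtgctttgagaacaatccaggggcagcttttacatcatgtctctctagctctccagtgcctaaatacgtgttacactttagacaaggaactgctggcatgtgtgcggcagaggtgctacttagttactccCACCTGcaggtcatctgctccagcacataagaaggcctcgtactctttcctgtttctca
Tbpl2: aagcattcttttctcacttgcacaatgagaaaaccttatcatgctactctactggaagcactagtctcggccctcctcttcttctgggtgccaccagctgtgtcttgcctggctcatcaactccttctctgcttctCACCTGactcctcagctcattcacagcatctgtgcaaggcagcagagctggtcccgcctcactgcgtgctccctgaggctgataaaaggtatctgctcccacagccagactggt
These stretches are chr1:21383306-21383555 (plus strand), chr5:72581085-72581334 (minus strand), chr4:140742644-140742893 (minus strand), chr5:135979855-135980104 (plus strand), chr19:11691052-11691301 (minus strand) and chr2:24096596-24096845 (minus strand). The first base of the match lay 57 bases before the start in Khdc1b, 83 in Zar1, 78 in Padi6, 55 in Zp3, 59 for the nearer match in Oosp1 and 114 in Tbpl2. Miox and Oosp2, the other 2 of the 8, held none.

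Over all genes with a single start, CAGGTG stood in 24.8% of the 754 promoters of genes that fell, in 14.4% of the 2736 of genes that rose and in 16.5% of the 3912 not called. The share was 17.1% over all 22862 single-start promoters of the table. After rescaling the shares were 22.0% of genes that fell and 14.5% of those that rose. Among the 100 genes with the largest falls, a set chosen after the calls were seen, it was 36.0%, and among the 100 with the largest rises 15.0%. The 100 promoters with the largest falls were also poorer in CG pairs, with a median of 4 in 250 bases, against 14 over genes tested. The homeobox motif TAATTG was present in 5.84% of genes that fell and 3.69% of those that rose, TAATTA in 3.85% and 2.01%, and TATAAA in 8.22% and 7.16%. Over the 7402 tested genes, from which the called genes come, the shares were 4.47% for TAATTG, 2.81% for TAATTA and 7.75% for TATAAA. Over all 22862 promoters they were 7.48%, 5.04% and 13.6% in the same order, each counted on both strands. Neighbouring matches may overlap, and a match describes the letters only.

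Among genes that store and translate maternal mRNA more fell than rose. Of 16 measured 7 fell (43.8%, against 10.4% of all genes) and 4 rose (25%, against 37.7%). After rescaling 10 fell (62.5%, against 16.8% of all genes) and 2 rose (12.5%, against 25.5%). The list median was -0.96, against 0.69 for all genes. Zar1 (chr5:72576806-72581254), an RNA-binding protein that organises stored mRNA, was at 4.03 and 5.29 TPM in the knockout against 1537 and 1453 TPM in wild type (log2 change -8.05 ± 0.21, adjusted p = 6e-21). Eif4e1b, the cap-binding protein of oocytes, was at 4.80 and 3.94 TPM in the knockout against 1051 and 1069 TPM in wild type, and the poly(A)-binding protein gene Pabpc1l at 4.53 and 3.46 TPM in the knockout against 131 and 146 TPM in wild type. Ybx2, a general mRNA-binding protein of germ cells, kept more of its level, at 286 and 279.7 TPM in the knockout against 1906 and 1807 TPM in wild type (log2 change -2.71 ± 0.094). In the opposite direction Zcchc11, a terminal uridylyl transferase, was at 106 and 109 TPM in the knockout against 4.44 and 5.07 TPM in wild type (log2 change 4.24 ± 0.18).

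Genes targeted in the other knockouts of the screen were lower as well. Of 12 measured, Dynll1 included, 9 fell (75%, against 10.4% of all genes) and none rose (11 and none after rescaling), with a median of -1.85. These counts and the median include the fall of Dynll1, the gene targeted here. Tbpl2, a variant of the TATA-binding protein that serves growing oocytes, was nearly undetected at 2.70 and 0.26 TPM in the knockout against 210.2 and 212 TPM in wild type (log2 change -6.62 ± 0.49, adjusted p = 7.9e-12). The homeobox gene Lhx8, which acts in primordial follicles, was at 34.0 and 39.3 TPM in the knockout against 464 and 455 TPM in wild type (log2 change -3.62 ± 0.12). Ell3, an elongation factor, and Kdm1b, the demethylase needed for maternal imprints, had log2 changes of -4.02 and -2.75. Stat3 was at 95.9 and 88.3 TPM in the knockout against 486 and 497 TPM in wild type. Sohlh1, which acts in early oocytes, was at 383 and 389.7 TPM in the knockout against 908 and 911 TPM in wild type. Its log2 change of -1.23 ± 0.42 passed at adjusted p = 0.013 but not with a pseudocount of 0.1 (adjusted p = 0.23) or without knockout replicate 1. With the libraries of the Sohlh1 knockout left out of the fit, Sohlh1 kept its call. Sub1 and Hes6 also fell, and Thap7, Ccnk and Sfr1 were not called.

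Early meiosis genes moved the other way. Of 23 measured genes of synapsis and recombination 18 rose (78.3%, against 37.7% of all genes) and 1 fell, with a median of 2.37. After rescaling 14 rose (60.9%, against 25.5% of all genes) and 1 fell. Rec8 (chr14:55618037-55625395), the cohesin of meiotic chromosomes, was at 124 and 139 TPM in the knockout against 0.28 and 0.94 TPM in wild type (log2 change 6.39 ± 0.95, adjusted p = 1.9e-06). Dmc1, the recombinase that pairs homologous DNA, was at 174 and 181 TPM in the knockout against 1.80 and 6.16 TPM in wild type (log2 change 5.32 ± 0.31, adjusted p = 8.6e-14). Spo11, which cuts DNA to start recombination, was at 82.3 and 71.3 TPM in the knockout against 1.30 and 1.32 TPM in wild type. Both knockout libraries lay above both wild-type libraries in each of these 3 genes. Spata22, a partner in recombination, 4930447C04Rik, a synaptonemal complex gene, and Hormad1, an axis protein, rose by 4.58, 4.55 and 3.85. Sycp3, an axis component named here after its values were seen, was abundant in both groups, at 1147 and 1171 TPM in the knockout against 872 and 908 TPM in wild type (log2 change 0.38 ± 0.049). The 1 gene that fell was Mnd1, a recombination accessory factor, at 42.2 and 62.5 TPM in the knockout against 132 and 142 TPM in wild type.

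The promoter of Rec8, chr14:55617916-55618165 (plus strand), held the same 6 letters 45 bases before the start, and that of Dmc1, chr15:79605110-79605359 (minus strand), held none. They are shown to set genes that rose beside those that fell.
Rec8: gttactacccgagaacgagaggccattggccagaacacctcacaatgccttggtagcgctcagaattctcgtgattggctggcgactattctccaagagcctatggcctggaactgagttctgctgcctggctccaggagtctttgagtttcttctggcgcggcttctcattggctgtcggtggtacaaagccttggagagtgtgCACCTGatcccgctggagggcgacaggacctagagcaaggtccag
Dmc1: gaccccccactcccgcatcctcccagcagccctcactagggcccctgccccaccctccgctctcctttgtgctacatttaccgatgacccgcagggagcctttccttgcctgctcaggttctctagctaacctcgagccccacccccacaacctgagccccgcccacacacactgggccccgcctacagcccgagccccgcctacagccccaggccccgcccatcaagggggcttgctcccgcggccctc
The motif stood in 6 of the 16 early meiosis promoters with a single start (37.5%) and in 11 of the 19 of the egg coat, maternal complex and growing oocyte lists (57.9%).

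Genes of germ cell specification and identity rose at 8 of 11 (72.7%, against 37.7% of all genes) and the other 3 were not called. After rescaling 5 rose (45.5%, against 25.5% of all genes) and none fell. The list median was 1.40, against 0.69 for all genes. Dnd1, an RNA-binding protein of early germ cells, was at 224 and 224 TPM in the knockout against 4.67 and 1.75 TPM in wild type (log2 change 5.83 ± 0.33, adjusted p = 4.1e-14). Dazl, a translational regulator and a marker of the germ line, was at 1345 and 1349.7 TPM in the knockout against 286 and 273 TPM in wild type (log2 change 2.26 ± 0.1). Prdm14, a specification factor, stood at 8.50 and 5.89 TPM in the knockout and was listed at 0 in the wild type. Ddx4, the germ cell helicase, was at 593 and 633 TPM in the knockout against 399.6 and 394 TPM in wild type and its log2 change of 0.62 ± 0.083 was under the limit for a call. Dmrt1, a germ cell and gonadal transcription factor, was at 474 and 482 TPM in the knockout against 8.26 and 9.62 TPM in wild type (log2 change 5.59 ± 0.32).

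Of 9 pluripotency genes 5 rose (55.6%, against 37.7% of all genes) and 1 fell (11.1%, against 10.4%). After rescaling 3 rose (33.3%, against 25.5% of all genes) and 1 fell (11.1%, against 16.8%). Sox2 was at 93.8 and 98.2 TPM in the knockout against 0.12 and 0 TPM in wild type (log2 change 6.52 ± 0.43), Dppa4 at 92.9 and 84.8 TPM in the knockout against 1.86 and 3.95 TPM in wild type and Klf4 at 59.1 and 52.0 TPM in the knockout against 1.50 and 1.91 TPM in wild type. Pou5f1, which oocytes express as they grow, was lower at 337 and 354 TPM in the knockout against 700 and 703 TPM in wild type. Its log2 change of -1.02 ± 0.098 met the limit, and without knockout replicate 1 it was -0.98, just under it. Of the stem cell markers set down, Sox2, Pou5f1 and Esrrb were in the table, and Esrrb was at 38.5 and 36.6 TPM in the knockout against 16.8 and 14.5 TPM in wild type (log2 change 1.21, 0.65 and no call after rescaling). Their part in the other changes was not tested.

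DNA methylation genes changed in both directions, with 6 of 10 higher (60%, against 37.7% of all genes) and 3 lower (30%, against 10.4%). After rescaling 5 were higher (50%, against 25.5% of all genes) and 3 lower (30%, against 16.8%). Dnmt3l, the cofactor with which oocytes set methylation, was at 72.3 and 72.8 TPM in the knockout against 5.46 and 3.62 TPM in wild type (log2 change 3.75 ± 0.33, adjusted p = 3e-10). Tet1, an enzyme that oxidises methylcytosine, was at 9.39 and 10.2 TPM in the knockout against 0.18 and 0.16 TPM in wild type. Uhrf1, which guides maintenance methylation, was at 95.4 and 98.4 TPM in the knockout against 899.7 and 862 TPM in wild type (log2 change -3.17 ± 0.093), and the imprint-protecting factor Zfp57 at 50.2 and 46.7 TPM in the knockout against 584 and 592 TPM in wild type (log2 change -3.57 ± 0.13). Kdm1b was the third that fell.

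The partners of LC8 in the dynein motor moved in a direction that depends on the scaling. Of 26 measured genes of cytoplasmic dynein, dynactin and their regulators 5 rose and 2 fell, which is 26.9% called against 48.2% of all genes, with a median of 0.08 against 0.69. After rescaling 3 rose and 9 fell (34.6% lower, against 16.8% of all genes). Dynll2, the second LC8 gene, whose product is nearly the same protein, was at 539.9 and 547 TPM in the knockout against 1059 and 1194 TPM in wild type, so its libraries in the knockout lay below wild type. Its log2 change of -1.05 ± 0.12 met the limit, and without wild-type replicate 2 it was -0.96 and did not. Dync1h1, the heavy chain that holds the motor domain, was at 198 and 187 TPM in the knockout against 79.5 and 73.9 TPM in wild type (log2 change 1.32, 0.73 and no call after rescaling). The intermediate chain Dync1i2 was at 140.4 and 154 TPM in the knockout against 247 and 242 TPM in wild type (log2 change -0.73 ± 0.11) and the light chain Dynlrb1 at 318 and 309 TPM in the knockout against 553 and 601 TPM in wild type (log2 change -0.88 ± 0.11), both under the limit for a call as deposited and called lower after rescaling. The dynactin subunits Dctn2, Dctn3 and Dctn4 had log2 changes of 0.55, -0.78 and -0.32, none of them called as deposited. After rescaling Dctn3 was called lower at -1.37.

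Of the regulators in this list some were called and others not. Ninl, a centrosomal adaptor, was at 69.5 and 62.2 TPM in the knockout against 6.23 and 10.4 TPM in wild type (log2 change 2.88 ± 0.27), and its relative Nin, which anchors microtubules, was at 3.02 and 2.74 TPM in the knockout against 25.9 and 21.5 TPM in wild type (log2 change -2.67 ± 0.17). Nde1, which holds dynein on its track together with LIS1, was at 63.0 and 54.0 TPM in the knockout against 9.13 and 7.59 TPM in wild type, and Spdl1, the kinetochore adaptor, at 85.6 and 91.3 TPM in the knockout against 28.1 and 28.2 TPM in wild type. Pafah1b1, the gene for LIS1, was at 109 and 109 TPM in the knockout against 146 and 151 TPM in wild type and had a log2 change of -0.44 ± 0.091. The cargo adaptors Bicd2 and Hook1 had log2 changes of 0.85 and 0.04, and none of these 3 was called. Capza1 was near the floor, at 7.04 and 6.13 TPM in the knockout against 1.35 and 4.49 TPM in wild type. Its log2 change of 1.08 was 0.46 without wild-type replicate 1, 0.99 without knockout replicate 1 and 0.61 after rescaling, none of which passed.

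Dynein 2, the motor of ciliary return transport that shares LC8, was described with intraflagellar transport genes. Of 19 measured 10 rose (52.6%, against 37.7% of all genes) and 3 fell (15.8%, against 10.4%), with a median of 1.28. After rescaling 7 rose (36.8%, against 25.5% of all genes) and 4 fell (21.1%, against 16.8%). Ift140 was at 57.7 and 59.0 TPM in the knockout against 10.9 and 15.9 TPM in wild type and the dynein 2 intermediate chains Wdr34 and Wdr60 rose by 1.70 and 1.70. Ift27, a small GTPase of the transport train, fell, at 70.0 and 64.3 TPM in the knockout against 404 and 384 TPM in wild type (log2 change -2.54 ± 0.13).

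Of 13 measured genes listed as partners of LC8 outside the motor 7 rose (53.8%, against 37.7% of all genes) and 2 fell. After rescaling 4 rose (30.8%, against 25.5% of all genes) and 3 fell. Set against the Nobox knockout, none of the 13 was higher without Dynll1 and 3 were lower. Bmf, a pro-death protein that LC8 holds on the cytoskeleton, was at 29.7 and 23.0 TPM in the knockout against 1.11 and 0.86 TPM in wild type (log2 change 3.78 ± 0.38, adjusted p = 2.8e-09). Bcl2l11, which encodes BIM, was at 15.2 and 16.6 TPM in the knockout against 5.05 and 3.45 TPM in wild type (log2 change 1.70 ± 0.28). Fam83d, a spindle protein, was at 56.8 and 49.9 TPM in the knockout against 5.69 and 8.27 TPM in wild type. Trp53bp1, the gene for 53BP1, was at 78.0 and 73.8 TPM in the knockout against 31.6 and 29.9 TPM in wild type, and its log2 change of 1.28 became 0.70 and lost its call after rescaling. Nos1, neuronal nitric oxide synthase, which LC8 is also known to inhibit, fell from 154 and 155 to 10.9 and 11.9 TPM (log2 change -3.65 ± 0.15). Esr1, the oestrogen receptor, was at 2.87 and 2.97 TPM in the knockout against 15.6 and 15.2 TPM in wild type.

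In the p53 and cell death list 13 of 22 genes rose (59.1%, against 37.7% of all genes) and 3 fell (13.6%, against 10.4%). After rescaling 11 rose (50%, against 25.5% of all genes) and 3 fell (13.6%, against 16.8%). The list median was 1.49 as deposited, against 0.69 for all genes. Trp63 (chr16:25683763-25892102), the guardian of the oocyte genome that marks primordial oocytes, was at 3.61 and 3.00 TPM in the knockout against 96.6 and 103 TPM in wild type (log2 change -4.55 ± 0.18, adjusted p = 2.1e-17). Its knockout libraries were 30.2-fold lower on average and did not overlap wild type. Sesn2 and Phlda3, targets of p53, were at 128 and 115 TPM in the knockout against 3.66 and 8.74 TPM in wild type and at 41.1 and 36.6 TPM in the knockout against 0.78 and 3.51 TPM in wild type respectively. Btg2 and Plk2, further p53 targets, rose by 3.12 and 2.83, and the death effector Bak1 by 2.84. Wild type of day 11 held 372 and 386 TPM of Btg2, above the knockout at 184 and 180 TPM (log2 change -1.06). Bak1 stood at 19.0 and 31.6 TPM on day 11 and was not called there. Set against that younger wild type, 7 of the 22 genes were higher and 4 lower. The list median was then 0.17, against 0.28 for all genes. Trp53 itself, named after its values were seen, was at 157 and 142 TPM in the knockout against 24.6 and 26.3 TPM in wild type.

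Cell cycle genes rose at 12 of 20 measured (60%, against 37.7% of all genes) and fell at 2 (10%, against 10.4%). After rescaling 8 rose (40%, against 25.5% of all genes) and 3 fell (15%, against 16.8%). The list median was 1.20, against 0.69 for all genes. Top2a, the topoisomerase of dividing cells, was at 430.0 and 410.0 TPM in the knockout against 10.1 and 8.89 TPM in wild type (log2 change 5.33 ± 0.16, adjusted p = 8.8e-20). The replication licensing genes Mcm3, Mcm6 and Mcm7 rose by 3.01, 2.22 and 2.54, and the S phase cyclin Ccne2 by 3.38. Birc5, survivin, fell, at 60.1 and 66.2 TPM in the knockout against 397 and 369 TPM in wild type. In the list of meiotic arrest and resumption 5 of 16 rose and 3 fell (4 and 6 after rescaling), and the share that rose, 31.3%, was below that of all genes (37.7%). Gpr3, the receptor that keeps the oocyte arrested, was at 2.18 and 1.84 TPM in the knockout against 12.0 and 11.6 TPM in wild type, and Cdc25b, the phosphatase that releases it, at 31.1 and 39.2 TPM in the knockout against 138 and 153 TPM in wild type. Adcy3, an adenylyl cyclase, was at 33.6 and 29.8 TPM in the knockout against 0.36 and 0.76 TPM in wild type, and the cell cycle kinase Aurkb rose by 2.39.

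In Kit, PI3K, mTOR and FOXO3 signalling, which wakes the primordial oocyte, 4 of 13 genes rose (30.8%, against 37.7% of all genes) and 2 fell, and after rescaling none rose and 3 fell. Kit, the receptor for the granulosa ligand, was at 181 and 186 TPM in the knockout against 543 and 512 TPM in wild type (log2 change -1.52 ± 0.077, adjusted p = 5.4e-15), and the regulatory subunit Pik3r1 was at 7.79 and 10.3 TPM in the knockout against 41.8 and 37.9 TPM in wild type. At the contact with granulosa cells 4 of 7 genes rose (57.1%, against 37.7% of all genes) and 2 fell (28.6%, against 10.4%). After rescaling 3 rose (42.9%, against 25.5% of all genes) and 2 fell (28.6%, against 16.8%). Gja4, connexin 37 of the oocyte side, was at 18.6 and 13.7 TPM in the knockout against 314 and 306 TPM in wild type (log2 change -4.19 ± 0.26, adjusted p = 2e-13), and the Notch ligand Jag1 at 8.95 and 8.57 TPM in the knockout against 162 and 163 TPM in wild type (log2 change -4.07 ± 0.21). Gja1, connexin 43 of granulosa cells, was at 55.1 and 65.9 TPM in the knockout against 6.45 and 6.31 TPM in wild type, higher in both knockout libraries.

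**Figure D3:**
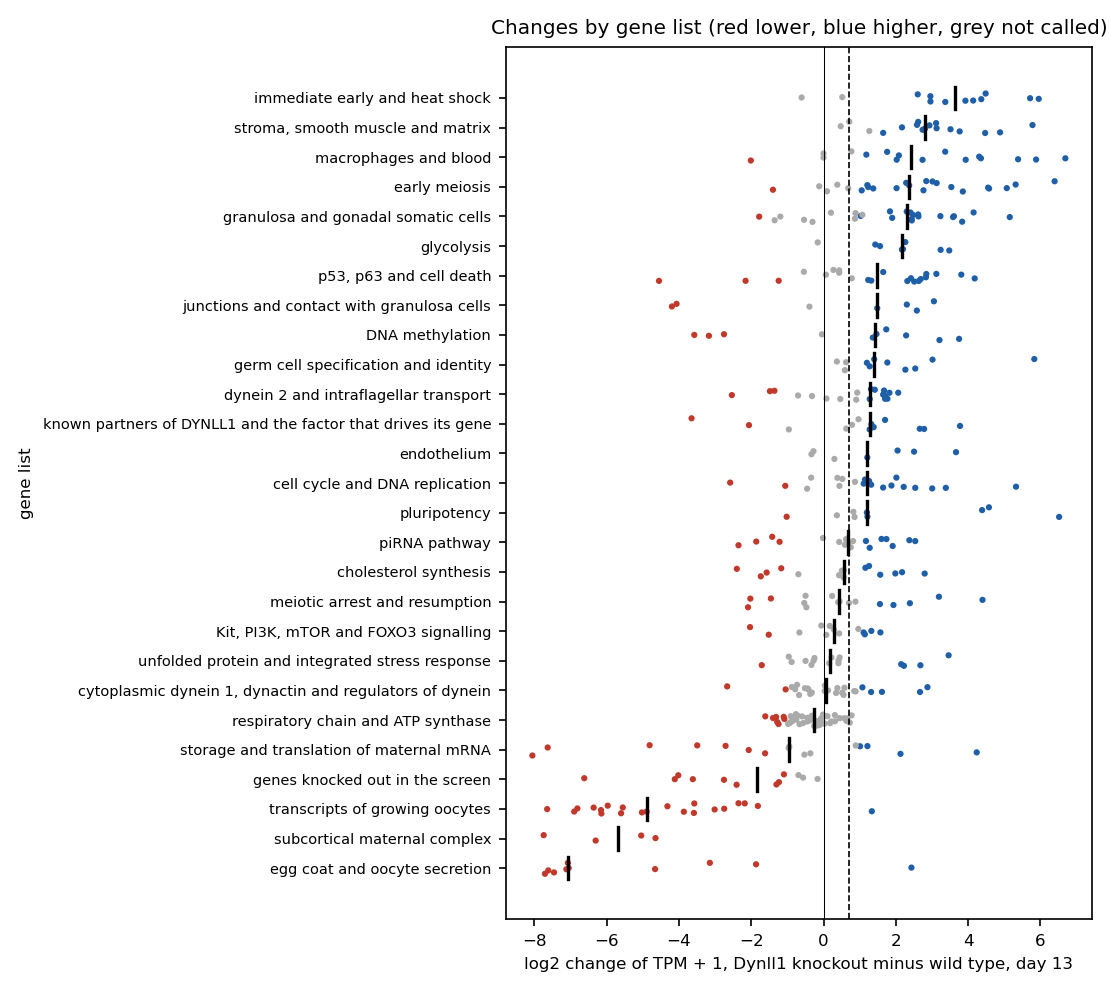
Log2 change of every tested member of 27 gene lists, Dynll1 knockout minus wild type of day 13; red points fell, blue points rose, grey points were not called, black bars are list medians and the dashed line is the median of all genes at 0.69. Medians run from -7.06 for the egg coat list to 3.65 for the immediate early and heat shock list.

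Immediate early and heat shock genes had the highest list median, 3.65. Of 12 measured 10 rose (83.3%, against 37.7% of all genes) and none fell. After rescaling 10 rose (83.3%, against 25.5% of all genes) and 1 fell. Fos was at 657 and 691 TPM in the knockout against 36.7 and 27.4 TPM in wild type (log2 change 4.37 ± 0.28) and Jun at 491 and 485 TPM in the knockout against 21.4 and 20.3 TPM in wild type (log2 change 4.48 ± 0.29). Wild type of day 11 held 360.5 and 372 TPM of Fos and 652 and 649.9 TPM of Jun, so the low values were those of wild type of day 13. The heat shock genes Hspa1a and Hspa1b, near-identical copies that may share reads, were at 55.5 and 52.7 and at 77.7 and 81.5 TPM in the knockout and at 1 TPM or less in wild type of day 13.

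Markers of other cells were read beside these results. The granulosa list summed to 649 to 677 TPM in the knockout and 419 to 439 TPM in wild type of day 13. In both knockout libraries 1 of 26 members was at 0. Of 25 tested members 16 rose (64%, against 37.7% of all genes) and 1 fell. After rescaling 15 rose (60%, against 25.5% of all genes) and 4 fell. In wild type of day 11 the sum was 1536 to 1540 TPM. Hsd3b1, a steroid-making enzyme, was at 47.6 and 39.6 TPM in the knockout, 0.46 and 0.07 in wild type of day 13 and 75.5 and 97.3 in wild type of day 11. Amhr2, the receptor of anti-Müllerian hormone, was at 97.7 and 79.2, 6.61 and 4.10 and 319 and 314 TPM in the same order. The knockout thus stood between the wild types in both genes. The stroma list summed to 755 to 759 TPM in the knockout and 67.2 to 79.3 TPM in wild type of day 13. Its sum in wild type of day 11 was 1477 to 1491 TPM. None of its 17 members was at 0 in the knockout, and 14 of them rose (82.4%, against 37.7% of all genes). After rescaling 13 rose (76.5%, against 25.5% of all genes), and none fell under either scaling. Myl9, a smooth muscle light chain, was at 124 and 119.8 TPM in the knockout and 0.79 and 1.79 in wild type of day 13.

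The list of macrophages and blood summed to 345 to 348 TPM in the Dynll1 knockout, 75.8 to 92.0 TPM in wild type of day 13, 33.3 to 54.7 TPM in wild type of day 11, 79.6 to 105 TPM in the Nobox and 40.6 to 45.3 TPM in the Tbpl2 knockout. Of 16 tested members 12 rose (75%, against 37.7% of all genes) and 1 fell against wild type of day 13. After rescaling 11 rose (68.8%, against 25.5% of all genes) and 1 fell. As deposited, 9 to 10 members were higher than in each of the other 3 groups. Over all 21 in vitro groups 5 had a higher sum. C1qa and C1qc, complement genes of macrophages, were listed at 0 in both wild types and stood at 22.7 and 15.5 and at 38.1 and 43.5 TPM in the knockout. Lyz2, lysozyme of myeloid cells, was at 57.2 and 65.9 TPM in the knockout against 0 and 0.12 TPM in wild type (log2 change 5.88 ± 1.2, adjusted p = 7.7e-05). The knockout held 12.2 and 16.7 TPM of Ctss, a protease of lysosomes listed at 0 in wild type of either day. Spp1, osteopontin, reached 102 and 103 TPM in the knockout and was listed at 0 in wild type of day 13. The member that fell was C1qb, at 20.8 and 14.5 TPM in the knockout against 80.8 and 66.1 TPM in wild type. Of the defining marker Ptprc the knockout held 0.62 and 0.80 TPM, and the haemoglobin genes Hba-a1 and Hba-a2 were listed at 0. The endothelium list summed to 67.6 to 70.7 TPM in the knockout and 12.4 to 15.1 TPM in wild type. Of its 7 members 4 rose as deposited (57.1%, against 37.7% of all genes) and after rescaling (against 25.5%), and none fell. The sort kept cells positive for Stella-CFP, and the part of their RNA in the rises above was not tested.

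**Figure D4:**
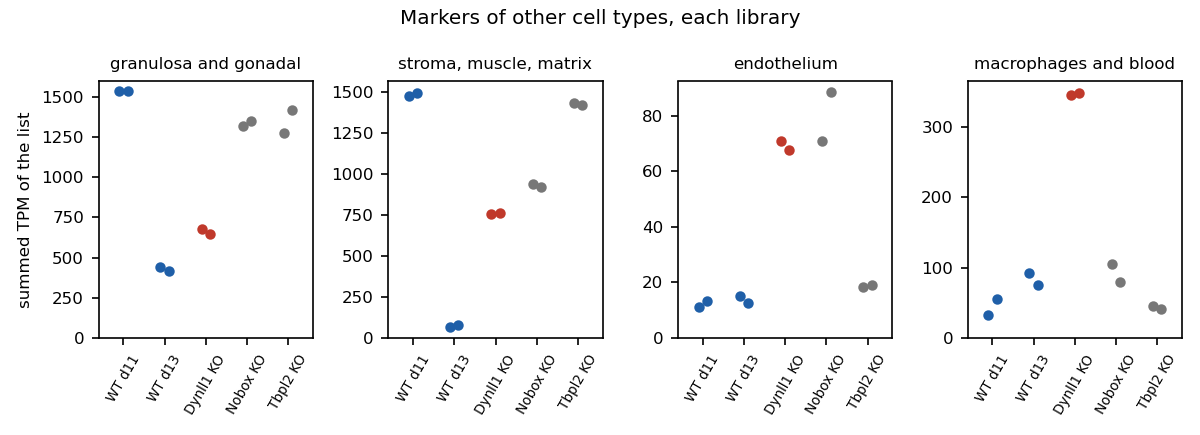
Summed TPM of 4 marker lists in each of 2 libraries for 5 groups, on axes that start at 0; the Dynll1 knockout is red, wild types are blue and the Nobox and Tbpl2 knockouts are grey. Granulosa and stroma sums of the knockout lie between those of the wild types, and its sum for macrophages and blood, 345 to 348 TPM, is above those of the other 4 groups.

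The largest rises were of mixed kinds. Besides genes already described, Sfrp2, a secreted Wnt antagonist, was listed at 0 in wild type of day 13 and was at 97.3 and 93.2 TPM in the knockout. Alpl, the alkaline phosphatase of early germ cells and bone, was at 148 and 143 TPM in the knockout against 1.25 and 0.73 TPM in wild type (log2 change 6.21 ± 0.32, adjusted p = 6.9e-15). Sdc4, a heparan sulphate proteoglycan, was the most abundant of the 15, at 755 and 753 TPM in the knockout against 12.4 and 10.1 TPM in wild type (log2 change 5.95 ± 0.13, adjusted p = 2.5e-22). Pald1, Ifi27, Pla2g7 and Mdk, the growth factor midkine, rose by 6.15, 6.08, 5.95 and 5.92. Flywch2, Pla2g1b and Cntfr, a cytokine receptor subunit, had 0 listed for wild type of day 13, and Cntfr was at 56.3 and 66.9 TPM in the knockout.

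Wild type of day 11 is 2 days younger, and the knockout of day 13 was set against it directly. There 3823 genes were called (31.1%), 2598 higher (21.1%) and 1225 lower (9.95%). After rescaling there were 3519 (28.6%), 2037 higher (16.6%) and 1482 lower (12%). The oocyte genes were below the younger stage too. Zp3 was at 1943 and 1843 TPM on day 11 (log2 change -4.60 ± 0.11), Padi6 at 4245 and 4138 TPM (log2 change -4.96 ± 0.12) and Zar1 at 59.1 and 46.9 TPM (log2 change -3.25 ± 0.21), each above both knockout libraries. Of the egg coat list 7 of 10 members were lower and 1 higher, and of 21 growing oocyte transcripts 15 were lower. Pabpc1l, by contrast, was at 3.29 and 3.51 TPM on day 11, a difference of 0.18 that was not called.

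Of 23 early meiosis genes 12 were higher than on day 11 and none lower. Dmc1 was at 13.2 and 20.2 TPM and Spo11 at 9.34 and 15.2 TPM on day 11, which put the knockout above both wild types (log2 changes 3.36 and 2.58). Trp63 was at 79.3 and 95.6 TPM on day 11, so that the low value was that of the knockout (log2 change -4.36 ± 0.18). The largest of the named rises over day 11 belonged to Dmrt1, at 2.86 and 5.39 TPM (log2 change 6.59 ± 0.32). Dnmt3l was listed at 0 on day 11. Cox4i2, a subunit of respiratory complex IV, was at 399 and 376 TPM on day 11 and 4.56 and 9.78 TPM in the knockout. None of 25 granulosa genes was higher than on day 11, and 13 were lower.

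Nobox is a homeobox factor that turns on many oocyte genes, and its knockout of the same day gave the second highest number of calls. The libraries of the Dynll1 and Nobox knockouts differed at 2609 genes (21.2%), 1457 higher in the Dynll1 knockout (11.8%) and 1152 lower (9.36%). All 4 genes of the maternal complex were lower without Dynll1 than without Nobox. Zp3 was at 532 and 551 TPM in the Nobox knockout (log2 difference -2.80 ± 0.11), and Zp1 at 1189 and 1218 TPM (log2 difference -5.68 ± 0.43), both far above the Dynll1 knockout. Other oocyte genes lay the other way. Npm2 was at 8.16 and 1.98 TPM, Gdf9 at 6.13 and 6.11 TPM and Zar1 at 0.39 and 0.65 TPM in the Nobox knockout, lower than in the Dynll1 knockout by log2 differences of 2.33, 1.04 and 1.89.

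Pou5f1 differed widely between these knockouts. It was at 337 and 354 TPM without Dynll1 and 5.41 and 4.11 TPM without Nobox (log2 difference 5.92 ± 0.098, adjusted p = 6.6e-25). Krt79, a keratin, and R3hdml were abundant without Nobox, at 354 and 351 and at 255 and 299 TPM, and low without Dynll1, at 0.19 and 0.72 and at 1.25 and 3.32 TPM. Of early meiosis genes 6 of 23 were higher in the Dynll1 knockout and none lower. Trp63 was at 55.9 and 51.4 TPM in the Nobox knockout, above both Dynll1 knockout libraries (log2 difference -3.67 ± 0.18). Cell cycle genes were higher without Dynll1 at 10 of 20.

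Against the Tbpl2 knockout of day 13 the Dynll1 knockout differed at 2239 genes (18.2%), 1494 higher (12.1%) and 745 lower (6.05%). After rescaling there were 1989 (16.2%), 1053 higher (8.56%) and 936 lower (7.61%). Oocyte genes were on the lower side: 8 of 10 egg coat genes, all 4 of the maternal complex and 17 of 21 growing oocyte transcripts were lower without Dynll1, and none was higher. Padi6 was at 6527 and 6532 TPM without Tbpl2 (log2 difference -5.60 ± 0.12) and Khdc1b at 131 and 137 TPM (log2 difference -6.14 ± 0.45). None of the 23 early meiosis genes was called in this comparison in either direction, with a median difference of -0.20. Dmc1 was at 199 and 253 TPM and 4930447C04Rik at 502 and 474 TPM without Tbpl2, so their values lay near those of the Dynll1 knockout. Dnmt3l, at 1.22 and 0.05 TPM without Tbpl2, was higher without Dynll1 (log2 difference 5.59 ± 0.33, adjusted p = 1e-12).

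**Figure D5:**
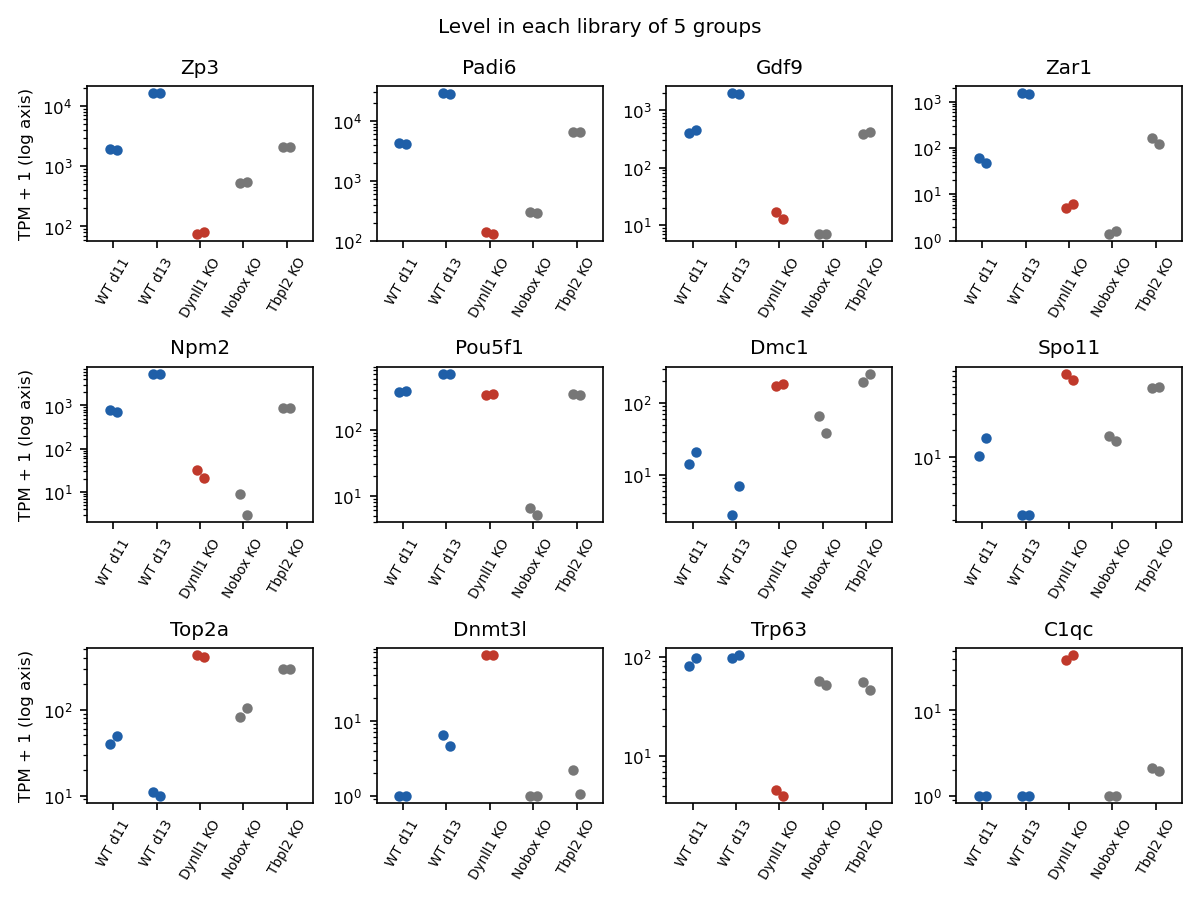
TPM + 1 on log axes in each of 2 libraries of 5 groups for 12 genes; the Dynll1 knockout is red, wild types of day 11 and day 13 are blue, and the Nobox and Tbpl2 knockouts of day 13 are grey. Zp3 and Padi6 are lowest in the Dynll1 knockout, Gdf9, Zar1, Npm2 and Pou5f1 are lower in the Nobox knockout, and Trp63 at 3.00 to 3.61 TPM and Dnmt3l at 72.3 to 72.8 TPM set the Dynll1 knockout apart from the other 4 groups.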

How the data were processed

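PolyA RNA was sequenced with strand-specific libraries, per the labels' protocols. The submitters' processing notes name STAR 2.6.0, featureCounts 1.6.0 and the build mm10. The values are TPM as deposited by the authors, by gene symbol. How reads of near-identical genes were counted is not given in the sources used here. Of 15163 rows 1 was cut short and 22 had dates for names, and these were left out; 80 columns of no sample were not used. Of 15140 genes 14555 matched GENCODE M21, which gave the positions. Some genes, Nobox and Figla among them, were not analysed here.

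With limma 3.58.1 (R 4.3.3) changes were fitted on log2(TPM + 1), with trend and robust options, over 42 libraries of 21 in vitro groups (21 residual degrees of freedom), so that groups of 2 share 1 estimate of the spread. Adding 1 understates the changes of low genes. Genes at 1 TPM or more in at least 2 libraries were tested, and p-values were Benjamini-Hochberg adjusted over all of them within a comparison. The code of the fit was run on simulated data in which 200 genes were changed between knockout and wild type, without a difference in scale. That run does not bear on the scale difference between the libraries here. The comparisons with wild type of day 11 and with the Nobox and Tbpl2 knockouts share the Dynll1 knockout libraries and are given side by side.

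Named genes are Dynll1, the 15 largest rises and 15 largest falls among genes with a mean of at least 10 TPM in the higher group and no overlap between groups (names of predicted genes and pseudogenes, Gm, Rik or -ps, left out), up to 6 called members of each list, all measured genes of the dynein and LC8 lists, and 5 in each direction of each further comparison. Ovgp1, Slc39a10, Sycp3, Mnd1, Sub1, Hes6, Thap7, Ccnk, Sfr1, Trp53, C1qb, Ptprc, Hba-a1 and Hba-a2 were named after their values were seen. The members and gene lists were chosen with earlier results of these data known. Alternatives were a pseudocount of 0.1, no filter, a filter at 5 TPM, a replicate block, rescaling by the median of ratios over genes above 1 TPM in every library, fits over the groups compared only or over every sample, a fit without the Sohlh1 knockout, and each library left out in turn.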

Additional observations from a re-analysis of the deposited data

How the results depend on the processing

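The number of genes that fell against wild type of day 13 was 1284 as deposited and 2062 after rescaling by the median of ratios, a change made by the scaling itself. The other counts of called genes, and the change of Dynll1, stayed within 1.5 times under each alternative run. No named gene that was called turned its direction. Among named genes not called some changed sign, as Dctn2 did from 0.55 to -0.03 after rescaling. Leaving out 1 library at a time, the counts ranged from 5475 to 5527 against wild type of day 13 (4255 to 4314 higher, 1213 to 1234 lower), from 3302 to 3731 against day 11, from 2197 to 2289 against the Nobox knockout and from 1798 to 1969 against the Tbpl2 knockout, and the log2 change of Dynll1 from -4.21 to -4.02. Of 180 named genes called, 177 kept their call with a pseudocount of 0.1 and 166 after rescaling. After rescaling more genes fell than rose in the lists of dynein, Kit signalling, arrest and cholesterol, where more had risen, and as many fell as rose in the stress list. The replicate numbers are not said to mark a shared culture, and deviations of same-numbered libraries correlated at r = 0.0078 across genes. With the replicate number as a block 5923 genes were called against wild type of day 13 and -4.11 was the change of Dynll1. TPM keep no depth, so for genes listed at 0 no limit from counting can be given.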

Other observations

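Metabolic genes not described so far are given here beside the shares of all genes tested, of which 37.7% rose and 10.4% fell against wild type of day 13. Of 51 genes of the respiratory chain and ATP synthase 7 fell (13.7%) and none rose, with a median of -0.26 against 0.69 for all genes. After rescaling 21 fell (41.2%, against 16.8% of all genes) and none rose. Atp5e, a subunit of ATP synthase, was at 921 and 931 TPM in the knockout against 2759.6 and 2905 TPM in wild type (log2 change -1.61 ± 0.096, adjusted p = 1.2e-13). Cox6a1, of complex IV, was at 848 and 706 TPM in the knockout against 1946 and 1901 TPM in wild type (log2 change -1.31 ± 0.075). Ndufb5, of complex I, had a log2 change of -1.28. Cox4i2, of complex IV, was not among these 51. It was at 4.56 and 9.78 TPM in the knockout against 737 and 675 TPM in wild type (log2 change -6.51 ± 0.63). The summed level of the list was 21592 to 22073 TPM in the knockout and 29618 to 30113 TPM in wild type, and it was the lowest among the 21 in vitro groups. Of 8 glycolysis genes 7 rose and none fell (5 rose after rescaling). Hk1, hexokinase, was at 21.8 and 22.9 TPM in the knockout against 0.70 and 1.57 TPM in wild type (log2 change 3.48 ± 0.29), and Pfkp, a phosphofructokinase, rose by 3.24. The glucose carrier Slc2a1 was at 68.0 and 55.2 TPM in the knockout against 13.8 and 11.5 TPM in wild type.

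In cholesterol synthesis 6 of 15 genes rose (40.0%, near the 37.7% of all genes) and 4 fell, and after rescaling 4 rose and 5 fell. Srebf2, the master regulator of the pathway, was at 262 and 245 TPM in the knockout against 41.2 and 30.7 TPM in wild type (log2 change 2.80 ± 0.14). Insig1, which holds SREBP in check, was at 191 and 213 TPM in the knockout against 681 and 665 TPM in wild type, and Tm7sf2, a sterol reductase, fell by 2.40 on the log2 scale. In the unfolded protein and integrated stress lists 4 of 16 genes rose (25.0%, below the share of all genes) and 1 fell (4 and 4 after rescaling). Psat1, of serine synthesis, was at 242 and 226 TPM in the knockout against 19.3 and 21.5 TPM in wild type (log2 change 3.46 ± 0.15). Xbp1, the transcription factor of the unfolded protein response, was the 1 that fell, at 41.6 and 38.7 TPM in the knockout against 124 and 143 TPM in wild type. Without knockout replicate 2 a further gene of this list passed on the lower side, to make 2.

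Of 19 genes of the piRNA pathway, which silences transposons in germ cells, 7 rose and 4 fell (5 and 4 after rescaling). The share that rose, 36.8%, was near the 37.7% of all genes tested, and the list median of 0.68 near that of all genes, 0.69, so only single members are described. Fkbp6, a chaperone of piRNA loading, was at 1022 and 1010.0 TPM in the knockout against 192 and 198 TPM in wild type (log2 change 2.38 ± 0.064, adjusted p = 1.1e-20), and Rnf17 rose by 2.54. Gtsf1, a cofactor of PIWI proteins, was at 141 and 162 TPM in the knockout against 779.7 and 772 TPM in wild type (log2 change -2.35 ± 0.11), and the granule component Tdrd5 was at 122 and 129.9 TPM in the knockout against 477 and 442 TPM in wild type. Against wild type of day 11, 9 of the 19 were higher and 4 lower. Gtsf1 was at 66.0 and 81.4 TPM in the Nobox knockout, below the Dynll1 knockout.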
